A study of Homo sapiens with 6 samples.

Results

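Voltage-gated sodium, calcium and potassium channel genes and the other potassium channel genes were examined in RD cells after knockdown of TAK1. RD is an established line of embryonal rhabdomyosarcoma, a tumor with skeletal muscle features, and TAK1 is a kinase, encoded by MAP3K7, that relays cytokine and growth factor signals to NF-kB and MAP kinases. The study asked how loss of TAK1 changes the behavior of rhabdomyosarcoma cells, and bulk RNA-seq compared RD cells transduced with lentivirus carrying a scrambled shRNA (control, n = 3) with RD cells transduced with lentivirus carrying TAK1 shRNA (TAK1 knockdown, n = 3). Both groups come from 1 cell line, and 1 TAK1 shRNA sequence was profiled.

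Members were taken by gene symbol: every symbol that starts with KCN, CACNA1, CACNA2D, CACNB or CACNG, or that is SCN with a number and A or B, with antisense rows and KCNQ1OT1 left out. This gave 147 of the 58735 rows of the count table. A member was taken as expressed when its mean over the 6 samples was at least 0.5 CPM (the count per 1e6 counts of the library, on library sizes scaled by the trimmed mean of M-values), and 56 of the 147 met this. The minimum uses the mean over both groups and not the difference between them. Just inside it lay KCNN1 (0.502 CPM) and KCNMB3 (0.527 CPM), and just outside KCNA7 (0.497 CPM), KCNS1 (0.496 CPM) and KCNK7 (0.489 CPM). Of the 91 members below it, 30 had no count in any sample, 82 had too few counts to be tested and 9 were tested.

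These channels set the electrical state of a cell. Sodium and calcium channels open on depolarization and let positive charge in, calcium entry also acting as a signal, whereas potassium channels let positive charge out and return the membrane to rest. Each channel is built around pore-forming subunits, and auxiliary subunits alter its gating and its delivery to the surface. Some potassium channel subunits (the KCNF, KCNG, KCNS and KCNV genes) form no channel alone and act by joining other pores. In developing skeletal muscle, hyperpolarization by potassium channels and calcium entry through T-type channels are known to precede myoblast fusion, and the L-type channel CACNA1S is the voltage sensor that couples excitation to contraction in mature fibers.

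Total counts per sample ran from 28839898 to 34469323. Replicates of a group differed by more than counting noise (chi-square of 2.88 to 8.60 for each degree of freedom). The labels number the samples of a group but do not say that they are separate cultures, so p-values measure the spread between these samples. MAP3K7, the targeted gene, was at 77.9, 76.5 and 77.6 CPM in control cells and at 30.5, 33.6 and 29.9 CPM in TAK1 knockdown cells. It fell by 1.30 on the log2 scale (SE 0.062, adjusted p = 4.45e-14, edgeR quasi-likelihood test with Benjamini-Hochberg adjustment, as for every adjusted p given here unless another tool is named).

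Of the 10 genes of a skeletal muscle lineage list, 8 were tested, 4 were higher and 1 was lower in TAK1 knockdown cells (11.8% and 11.3% of all genes tested, at the thresholds given with the channel calls), and the summed level of the list was 2070 to 2100 CPM in control and 2020 to 2160 CPM in knockdown samples. The 4 that rose were MYOD1 (log2 fold change 0.37, SE 0.047), MYOG (0.27, SE 0.050), CHRNG (0.47, SE 0.076) and MYMK (0.98, SE 0.11), and the one that fell was CHRNA1 (-0.40, SE 0.039). MYF5 was at 0 in all samples. Each list of markers of other cells in which these channels are known had a lower sum than the muscle list. The 8 neuron genes summed to 15.4 to 16.4 CPM in control and 13.9 to 14.4 CPM in knockdown samples, with ELAVL4 at 0. The 6 heart genes summed to 33.2 to 34.9 and 28.4 to 34.7 CPM, almost wholly from NKX2-5 (mean 32.5 CPM), with MYBPC3, MYL7 and NPPB at 0. The 5 smooth muscle genes summed to 50.1 to 53.3 and 47.0 to 53.1 CPM, almost wholly from SMTN (mean 49.7 CPM). The 4 leukocyte and endothelium genes summed to at most 0.246 CPM, with CDH5 at 0. Of the neuron (4 tested), heart (1 tested) and smooth muscle (3 tested) genes, 0 passed in edgeR, DESeq2 or limma-voom, and 0 had an unadjusted p under 0.05 in edgeR. In bulk samples, fewer cells that express a gene and less RNA per cell cannot be told apart, and the part of the rise in muscle genes in the channel results was not tested.

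The following promoters are printed here as examples of genes called in each direction, chosen with their values known. The first 3 are from sodium channel genes that fell (SCN9A, SCN7A, SCN8A), and the other 3 are from genes that rose (KCNF1, KCNC4, CACNA1S). Each is the 250 bases before the transcription start from RefSeq on GRCh38.p14, written 5′ to 3′ on the gene's strand. Capitals mark matches, on either strand, to CAGCTG (an E-box of the kind bound by MYOD1), TGACGTCA (a cAMP response element, CRE) or GGAATG (a TEAD motif). The first pair of motifs reads the same on both strands, and no printed matches overlap.
SCN9A, chr2:166375945-166376194, minus strand: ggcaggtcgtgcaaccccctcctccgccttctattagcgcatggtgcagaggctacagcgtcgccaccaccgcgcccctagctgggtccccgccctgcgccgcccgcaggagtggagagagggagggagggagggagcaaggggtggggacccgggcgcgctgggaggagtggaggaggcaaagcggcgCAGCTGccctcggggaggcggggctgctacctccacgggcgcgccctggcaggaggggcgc
SCN7A, chr2:166494250-166494499, minus strand: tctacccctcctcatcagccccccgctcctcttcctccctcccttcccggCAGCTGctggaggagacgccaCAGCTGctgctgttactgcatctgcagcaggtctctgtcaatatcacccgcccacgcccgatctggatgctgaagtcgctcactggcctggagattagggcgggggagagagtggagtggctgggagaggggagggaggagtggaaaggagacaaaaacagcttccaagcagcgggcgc
SCN8A, chr12:51590983-51591232, plus strand: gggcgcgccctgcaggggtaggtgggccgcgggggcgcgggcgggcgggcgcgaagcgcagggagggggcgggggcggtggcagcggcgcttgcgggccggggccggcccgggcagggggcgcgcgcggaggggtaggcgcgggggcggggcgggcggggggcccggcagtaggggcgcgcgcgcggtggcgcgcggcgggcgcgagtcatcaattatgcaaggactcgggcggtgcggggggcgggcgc
KCNF1, chr2:10911684-10911933, plus strand: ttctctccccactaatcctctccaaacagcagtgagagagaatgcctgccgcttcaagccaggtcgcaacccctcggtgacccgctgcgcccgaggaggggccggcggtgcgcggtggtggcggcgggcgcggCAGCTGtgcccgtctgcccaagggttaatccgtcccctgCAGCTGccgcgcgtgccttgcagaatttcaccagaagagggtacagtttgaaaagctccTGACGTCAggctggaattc
KCNC4, chr1:110210064-110210313, plus strand: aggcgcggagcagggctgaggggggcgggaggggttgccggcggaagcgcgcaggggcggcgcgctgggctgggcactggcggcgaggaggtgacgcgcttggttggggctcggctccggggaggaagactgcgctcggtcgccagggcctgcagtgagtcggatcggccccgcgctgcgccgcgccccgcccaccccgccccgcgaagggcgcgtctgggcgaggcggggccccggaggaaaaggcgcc
CACNA1S, chr1:201112427-201112676, minus strand: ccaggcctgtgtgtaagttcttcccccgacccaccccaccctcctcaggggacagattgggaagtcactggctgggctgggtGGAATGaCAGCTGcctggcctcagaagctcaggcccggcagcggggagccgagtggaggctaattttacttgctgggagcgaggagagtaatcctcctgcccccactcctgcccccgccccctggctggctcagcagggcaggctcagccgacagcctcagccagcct

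The SCN9A promoter held 1 CAGCTG and the SCN7A promoter 2, and SCN8A and KCNC4 held no match to the motifs searched. In KCNF1 there were 2 CAGCTG and 1 TGACGTCA, and in CACNA1S GGAATG stood next to CAGCTG. A promoter was matched for 37 of the 56 expressed members. Over all genes tested, a promoter was matched for 10821 of 15935. CAGCTG was found in 8 of the 37, against 12.9% of the 10821, and GGAATG in 5, against 9.21%. TGACGTCA occurred in 1 of the 37 (2.95% of all promoters), the AP-1 motif TGANTCA in 3 (3.54%) and TATAAA in 1 (4.98%). The median GC content was 71.2% in the 37 and 66.0% in all. Motifs were found among genes that rose and genes that fell, and a match is a description of the letters, not of binding.

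TAK1 knockdown moved channel genes in both directions. Of the 56 expressed members, all tested, 13 were higher (23.2%) and 11 lower (19.6%) at a threshold of 0.05 on the adjusted p and of 0.25, in either direction, on the log2 fold change. Over all 15935 genes tested the same rule called 11.8% higher and 11.3% lower, and over the 14792 of these with a mean of at least 0.5 CPM it called 12.5% and 12.1%. The median log2 fold change was 0.054 in the channel genes and 0.018 in all genes tested, while the median absolute log2 fold change was 0.328 and 0.187. Calls were made in 14 of the 25 members at 10 CPM or more, in 10 of the 21 between 1 and 10 CPM, and in 0 of the 10 under 1 CPM, where DESeq2 and limma-voom also called 0 and 0 had an unadjusted p under 0.05 in edgeR. The scatter of level against change shows the called genes from KCNH3, at a mean of 1.22 CPM, to SCN9A, at 299 CPM.

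**Figure D1:**
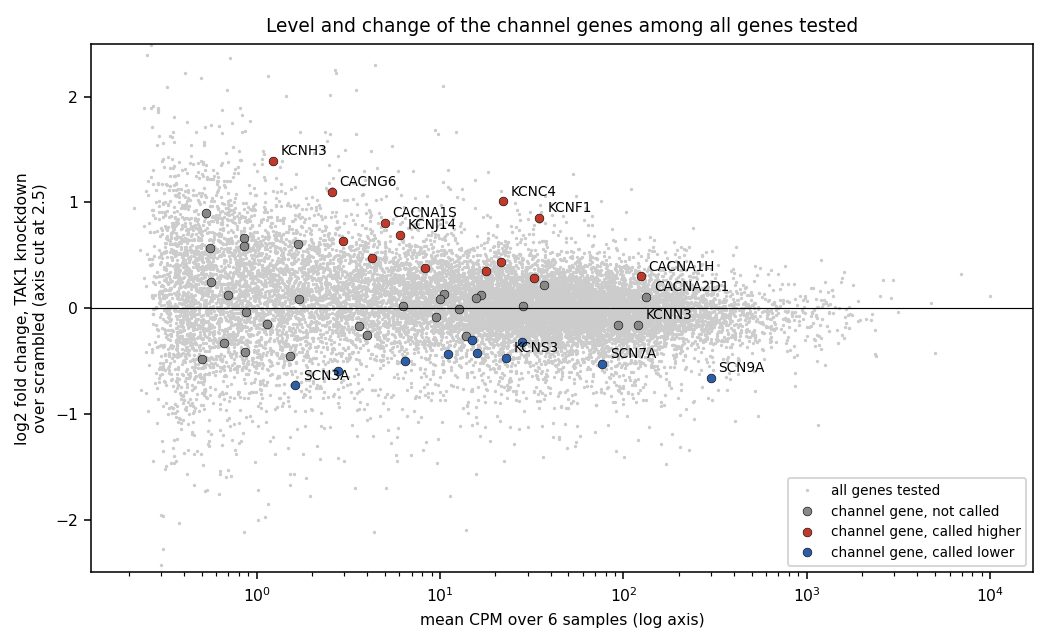
Mean CPM over the 6 samples (log axis) against the log2 fold change of TAK1 knockdown over control, cut at 2.5 in both directions. Small grey dots are the 15935 genes tested, and larger points are 52 of the 56 expressed channel genes, red where called higher (13), blue where called lower (10) and dark grey where not called (29). SCN9A, at the highest mean CPM of the channel genes, lies at -0.66, and KCNH3, at 1.39, is the highest of the channel genes shown.

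The calls were counted by the role of the subunit (the plot of fold changes by role). Over all genes tested with a mean of at least 0.5 CPM, 12.5% were called higher and 12.1% lower. All 5 expressed sodium channel pore genes were lower. Of the 4 calcium channel pore genes 3 were higher and 1 was lower, and of the 7 calcium channel auxiliary genes 2 were called, both higher. Of the 18 voltage-gated potassium pore genes 4 rose and 3 fell. Among the rest, 2 of 7 inward rectifiers rose and 1 fell, 1 of 2 tandem-pore potassium genes fell, 1 of 2 sodium channel beta genes rose, 1 of 8 potassium auxiliary genes rose, and 0 of the 3 calcium-activated potassium pore genes passed in edgeR, DESeq2 or limma-voom, 1 of them (KCNN3) with an unadjusted p under 0.05 in edgeR. Counts such as 1 of 8 are near the shares over all genes. The difference between roles was not tested, since the members were chosen with results known.

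**Figure D2:**
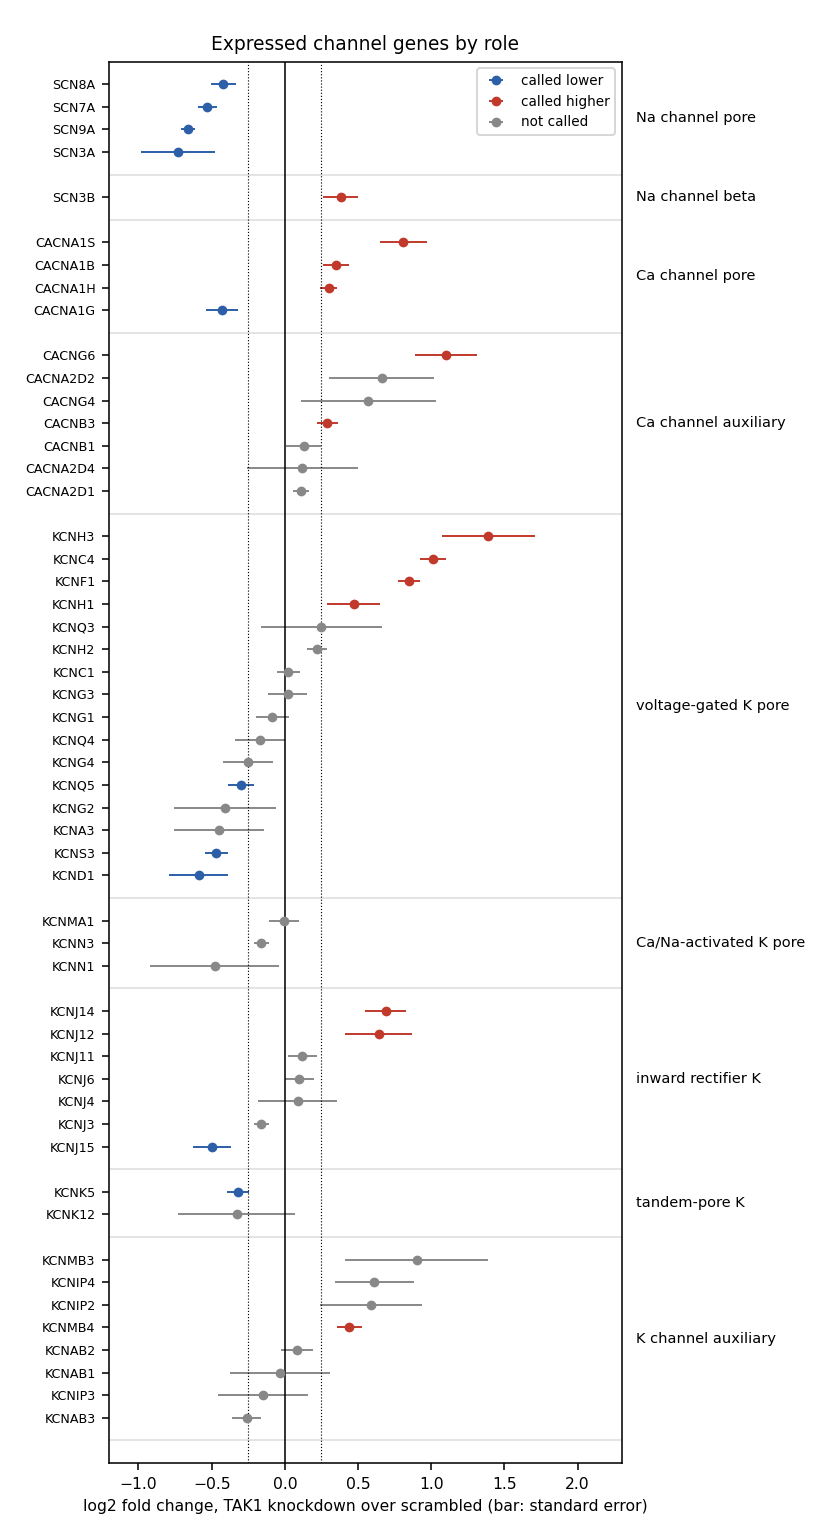
Log2 fold change of TAK1 knockdown over control (horizontal axis) for 52 of the 56 expressed channel genes, grouped by role, with bars for the standard error and dotted lines at the fold threshold of 0.25. The 4 sodium channel pore genes shown lie between -0.73 and -0.42, and the 7 calcium channel auxiliary genes between 0.11 and 1.10.

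Sodium channel pores had the highest summed level per length of all roles in control cells. SCN9A (ENSG00000169432.19, chromosome 2, 166195185 to 166376001, minus strand in GRCh38) encodes Nav1.7, known from pain-sensing neurons, and was the channel gene with the highest level in RD cells. It was at 353, 369 and 376 CPM in control and 217, 234 and 242 CPM in knockdown samples. The groups stand far apart, every knockdown sample lying below every control sample. SCN9A fell by 0.66 on the log2 scale (SE 0.048, adjusted p = 6.92e-11).

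SCN7A (ENSG00000136546.17) encodes NaX, an atypical member that senses sodium concentration. Its level was 86.9, 86.2 and 98.9 CPM in control and 62.0, 58.8 and 67.7 CPM in knockdown samples, again without overlap, and it fell by 0.53 (SE 0.063, adjusted p = 3.16e-07). SCN8A (ENSG00000196876.19), which encodes Nav1.6 of axons, went from 17.1, 18.5 and 18.9 CPM to 13.5, 13.1 and 14.1 CPM, a log2 fold change of -0.42 (SE 0.087, adjusted p = 0.000476). The lowest of the 5 in level, SCN3A (ENSG00000153253.20, Nav1.3, known from the embryonic brain), went from 2.04, 2.16 and 1.85 CPM to 1.27, 1.08 and 1.30 CPM (log2 fold change -0.73, SE 0.25, adjusted p = 0.0261). The call of SCN3A was lost without control sample 1, control sample 2 or knockdown sample 2, with log2 fold changes of -0.72, -0.68 and -0.65 and adjusted p of 0.0644, 0.0966 and 0.0816.

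Scaled to the length of the canonical transcript, SCN9A was at 37.5 ± 1.22 RPKM in control and 23.7 ± 1.32 RPKM in knockdown cells (SD, n = 3) and SCN7A at 12.1 ± 0.954 and 8.42 ± 0.608 RPKM. SCN8A and SCN3A were much lower, with overall means of 1.37 and 0.177 RPKM. The summed RPKM of the 5 genes was 64.7, 65.9 and 68.2 in control and 43.9, 44.5 and 47.7 in knockdown samples, a ratio of 0.685, and SCN9A made up 54.9% of it.

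SCN4A, the sodium channel of mature skeletal muscle, was near absent, at 0.336 CPM over the 6 samples with 2 to 18 counts per sample. SCN3A, SCN9A and SCN7A lie in 1 cluster on chromosome 2, in the order SCN3A, SCN2A, CSRNP3, GALNT3, TTC21B, SCN1A, SCN9A, SCN7A. Within it SCN2A (0.142 CPM), GALNT3 (0.0695 CPM) and SCN1A (0.0114 CPM) had too few counts to be tested. TTC21B, a cilium gene in the middle of the cluster, was at 52.9 CPM and had a log2 fold change of -0.066 (SE 0.064, adjusted p = 0.475), and CSRNP3 had one of 0.95 (SE 0.41, adjusted p = 0.0815) at 0.617 CPM. The 3 sodium channel genes that were tested in the cluster fell and the 2 other genes did not pass. SCN8A lies on chromosome 12.

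Sodium channel beta subunits modulate gating and hold the channel at the surface. SCN3B (ENSG00000166257.10) went from 6.93, 8.19 and 6.39 CPM to 10.4, 8.24 and 9.45 CPM (log2 fold change 0.38, SE 0.12, adjusted p = 0.0204). The lowest knockdown sample lay only just above the highest control sample. Its call was lost without control sample 1 (0.36, adjusted p = 0.0632), control sample 3 (0.30, adjusted p = 0.118), knockdown sample 1 (0.30, adjusted p = 0.0937) or knockdown sample 3 (0.36, adjusted p = 0.0578).

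Among calcium channel pores, the T-type gene CACNA1H (ENSG00000196557.13), which encodes Cav3.2, known from fusing myoblasts, dominated. It was at 114, 110.0 and 108 CPM in control and 148, 138 and 123 CPM in knockdown samples. Every knockdown sample was above every control sample, and CACNA1H rose by 0.30 (SE 0.058, adjusted p = 0.000212). Without knockdown sample 1 the log2 fold change was 0.24 (adjusted p = 0.000845), under the fold threshold. The other expressed T-type gene, CACNA1G (ENSG00000006283.18, Cav3.1), moved the opposite way, from 11.2, 15.1 and 11.7 CPM to 9.85, 9.06 and 9.27 CPM (-0.43, SE 0.11, adjusted p = 0.00438). Control sample 2 stands above the others, and without it the log2 fold change was -0.29 (adjusted p = 0.085), so the call rests on that sample.

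In RPKM, CACNA1H was at 13.5 ± 0.396 in control and 16.6 ± 1.57 in knockdown cells (SD, n = 3) and CACNA1G at 1.47 ± 0.245 and 1.09 ± 0.0475. The ratio of CACNA1H to CACNA1G was 10.7, 7.65 and 9.68 in control and 15.8, 16.0 and 13.9 in knockdown samples, without overlap. Thus the T-type RNA was mostly CACNA1H in both groups and more so after knockdown.

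CACNA1S (ENSG00000081248.12), the Cav1.1 voltage sensor of skeletal muscle fibers, was low but rose. It was at 3.06, 3.27 and 4.51 CPM in control and 6.87, 6.79 and 5.36 CPM in knockdown samples (0.81, SE 0.16, adjusted p = 0.000354), and the groups do not overlap. CACNA1B (ENSG00000148408.14, Cav2.2, the N-type channel of nerve terminals) was at 15.4, 15.7 and 15.5 CPM in control and 22.3, 18.6 and 18.7 CPM in knockdown samples (0.35, SE 0.089, adjusted p = 0.00302). The control samples are nearly equal and knockdown sample 1 is the highest. The summed RPKM of the 4 calcium pore genes was 17.3, 17.3 and 16.8 in control and 22.6, 20.9 and 18.8 in knockdown samples, a ratio of 1.21, with CACNA1H at 79.4% of the sum.

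All 7 expressed calcium channel auxiliary genes had a positive log2 fold change, and 2 of them passed. The shared sign carries no test, and the share of positive signs over all genes tested was not counted. The value of CACNA2D4 (0.12, SE 0.38) lies within its SE. CACNG4 (0.57, SE 0.46) met the CPM minimum through its knockdown mean of 0.667 CPM, with 0.445 CPM in control. Of the genes of this role tested below the minimum, CACNB2 had -0.023 (SE 0.56) and CACNG1 0.34 (SE 0.5). CACNB3 (ENSG00000167535.8), a cytosolic beta subunit that brings pores to the surface, was at 29.4, 29.5 and 28.4 CPM in control and 37.7, 36.5 and 32.9 CPM in knockdown samples (0.29, SE 0.070, adjusted p = 0.00201). CACNG6 (ENSG00000130433.8), a relative of the skeletal muscle gamma subunit CACNG1, was at 1.65, 1.78 and 1.43 CPM and rose to 4.04, 3.65 and 2.79 CPM (1.10, SE 0.21, adjusted p = 0.0002). In both genes the groups do not overlap, and for CACNG6 the lowest knockdown sample is well above all control samples.

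The most abundant auxiliary gene per length was CACNA2D1, the alpha2delta subunit of skeletal muscle, at a mean of 17.6 RPKM. It was at 123, 125 and 136 CPM in control and 132, 137 and 145 CPM in knockdown samples, the groups overlap, and it did not pass (0.11, SE 0.052, adjusted p = 0.106). CACNB1, the beta subunit of skeletal muscle, also did not pass (0.13, SE 0.12, adjusted p = 0.448, mean 10.5 CPM). CACNG1 itself was below the minimum, at 0.361 CPM. The summed RPKM of the 7 genes was 29.9, 30.3 and 31.5 in control and 36.0, 35.5 and 34.4 in knockdown samples, a ratio of 1.16.

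**Figure D3:**
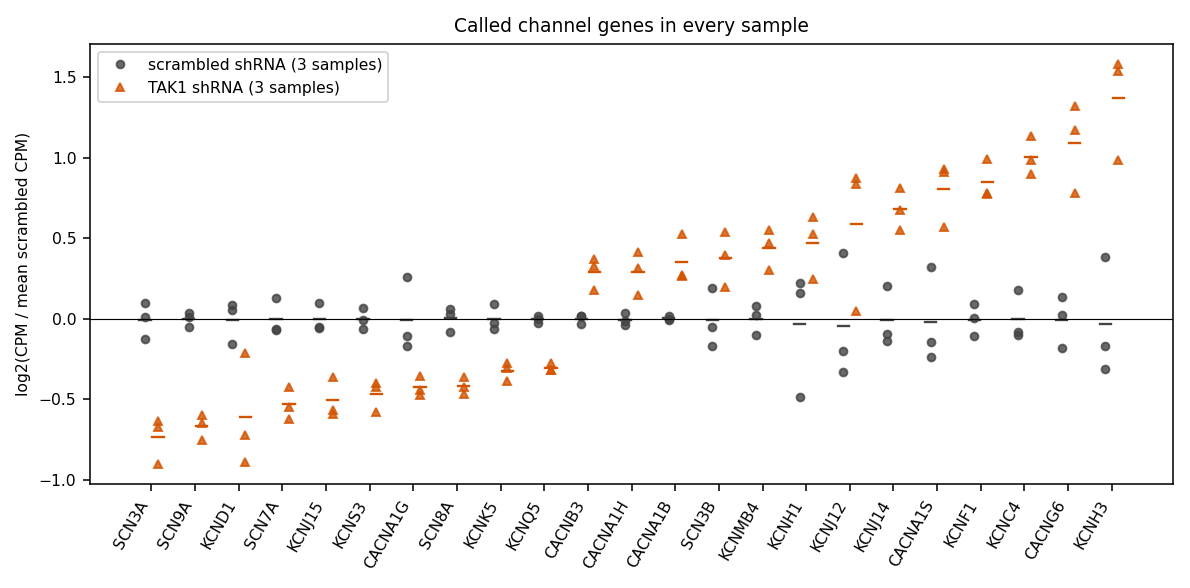
A set of 23 of the 24 called channel genes in every sample, as log2 of its CPM over the mean CPM of the control samples (vertical axis). Circles are control and triangles TAK1 knockdown samples (3 each), and short lines are the means of the points. For KCNJ12 the lowest knockdown sample (2.41 CPM) lies below the highest control sample (3.09 CPM), and for the other 22 genes the groups do not overlap. The genes were called on these same samples, so this separation adds no evidence to the calls. The share of all genes tested without overlap was not counted.

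Voltage-gated potassium pores formed the largest role, with 44 rows of which 18 were expressed. KCNH3 and KCNC4 among them had 2 of the 3 largest log2 fold changes of the expressed genes called. KCNF1 (ENSG00000162975.5, chromosome 2, 10911934 to 10914225, plus strand) encodes Kv5.1, a silent subunit that modifies other potassium channels. It went from 23.0, 26.4 and 24.9 CPM to 49.3, 42.4 and 42.7 CPM (0.85, SE 0.075, adjusted p = 2.43e-09). Every knockdown sample was far above every control sample, and KCNF1 had the highest RPKM of its role over the 6 samples together (mean 15.2). It was at 10.8 ± 0.741 RPKM in control and 19.5 ± 1.70 RPKM in knockdown cells (SD, n = 3). KCNS3 was at 11.4 ± 0.519 and 8.23 ± 0.554 RPKM, the higher of the pair in control cells on the canonical transcript length. That order reverses when all exons of a gene are merged, since KCNS3 then has 3128 in place of 2341 bases and KCNF1 stays at 2292.

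KCNC4 (ENSG00000116396.15) encodes Kv3.4, a fast-inactivating channel known from skeletal muscle. It was at 16.4, 13.7 and 13.5 CPM in control and 28.7, 27.1 and 31.8 CPM in knockdown samples. The separation is complete, and the rise was 1.01 on the log2 scale (SE 0.089, adjusted p = 2.23e-09). KCNC1, of the same subfamily, did not pass (0.024, SE 0.077, adjusted p = 0.845).

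KCNH3 (ENSG00000135519.8), which encodes Kv12.2 of the EAG family, had the largest log2 fold change of the expressed channel genes called, from low levels. It was at 0.598, 0.540 and 0.876 CPM in control and 1.95, 2.01 and 1.33 CPM in knockdown samples (1.39, SE 0.32, adjusted p = 0.00126). KCNH1 (ENSG00000143473.14, Kv10.1), a channel known to hyperpolarize human myoblasts before fusion, was at 2.53, 4.13 and 3.96 CPM in control and 5.10, 5.49 and 4.21 CPM in knockdown samples (0.47, SE 0.18, adjusted p = 0.0421). For KCNH1 control sample 1 is low and knockdown sample 3 lies close to the other control samples. Its call was lost without control sample 1 (0.29, adjusted p = 0.237), knockdown sample 1 (0.45, adjusted p = 0.0884) or knockdown sample 2 (0.38, adjusted p = 0.135), and with DESeq2 (0.47, adjusted p = 0.0607). KCNH2 had an adjusted p of 0.0122 but a log2 fold change of 0.22 (SE 0.068), under the fold threshold. All 3 expressed genes of the EAG family had positive log2 fold changes. This shared sign also carries no test, and the share of positive signs over all genes tested was not counted.

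The other direction was seen in 3 voltage-gated potassium pores. KCNS3 (ENSG00000170745.12, Kv9.3), like KCNF1 a silent modifier of other potassium channels, went from 27.9, 25.5 and 26.5 CPM to 20.2, 19.8 and 17.8 CPM (-0.47, SE 0.079, adjusted p = 4.39e-05). The groups do not overlap, so of the silent subunits 1 rose and 1 fell, and 0 of the 4 KCNG genes passed in edgeR, DESeq2 or limma-voom, or had an unadjusted p under 0.05 in edgeR. KCNQ5 (ENSG00000185760.18), which encodes Kv7.5, an M-type channel also found in skeletal muscle, was at 16.3, 16.8 and 16.6 CPM and fell to 13.3, 13.3 and 13.7 CPM (-0.30, SE 0.087, adjusted p = 0.00839). The replicates of KCNQ5 lie within a narrow band in each group. KCND1 (ENSG00000102057.10, Kv4.1) went from 3.45, 3.52 and 2.98 CPM to 2.87, 2.01 and 1.79 CPM (-0.59, SE 0.20, adjusted p = 0.0294). Its knockdown sample 1 lay just under the control samples. The call was lost without control sample 1 (-0.56, adjusted p = 0.0777), control sample 2 (-0.54, adjusted p = 0.10), knockdown sample 2 (-0.52, adjusted p = 0.0752) or knockdown sample 3 (-0.46, adjusted p = 0.112). The 11 other pore genes of this role had log2 fold changes from -0.45 (KCNA3) to 0.25 (KCNQ3). Summed over the 18 genes, RPKM was 57.5, 55.5 and 55.9 in control and 69.8, 64.0 and 63.0 in knockdown samples, a ratio of 1.17. The silent subunit KCNF1 made up 24.9% of the sum over all samples.

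Inward rectifiers hold the resting potential. KCNJ3 (Kir3.1, a subunit of channels opened by G proteins) was the most abundant per length, at a mean of 20.1 RPKM. It was at 99.1, 94.2 and 102 CPM in control and 89.0, 92.2 and 83.2 CPM in knockdown samples, with an adjusted p of 0.025 but a log2 fold change of -0.16 (SE 0.054), under the fold threshold. KCNJ14 (ENSG00000182324.7, Kir2.4) rose from 4.36, 4.22 and 5.35 CPM to 6.81, 7.42 and 8.18 CPM (0.69, SE 0.14, adjusted p = 0.000346). Its groups do not overlap, but its exons overlap those of GRWD1 on the same strand, a gene at 185 CPM with a log2 fold change of 0.17 (SE 0.050, adjusted p = 0.0103). KCNJ15 (ENSG00000157551.19, Kir4.2) fell from 7.31, 8.13 and 7.30 CPM to 5.03, 5.12 and 5.91 CPM (-0.50, SE 0.13, adjusted p = 0.00344), and DSCR8, which overlaps it on the same strand at a mean of 10.5 CPM, had a log2 fold change of 0.0021 (adjusted p = 0.991).

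KCNJ12 (ENSG00000184185.10, Kir2.2), a rectifier of skeletal muscle, was at 3.09, 2.03 and 1.85 CPM in control and 4.17, 2.41 and 4.27 CPM in knockdown samples (0.64, SE 0.23, adjusted p = 0.0344). It is the called gene whose groups overlap, with knockdown sample 2 among the control samples. Its call was lost without control sample 2 (0.55, adjusted p = 0.126), control sample 3 (0.49, adjusted p = 0.158), knockdown sample 1 (0.52, adjusted p = 0.13) or knockdown sample 3 (0.48, adjusted p = 0.177), and with limma-voom (0.61, adjusted p = 0.0593). KCNJ18, a near-identical copy, held 2 counts over all samples, and how reads shared by the pair were counted is not given in the sources used here. KCNJ2, the main rectifier of mature muscle, held 1 count in all. KCNJ11 (Kir6.2, the pore of ATP-sensitive channels) did not pass (0.12, SE 0.098, adjusted p = 0.385, mean 16.8 CPM).

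Of the tandem-pore genes, which carry background potassium current, 2 of 16 were expressed. KCNK5 (ENSG00000164626.9, TASK-2) made up 99.3% of their summed RPKM. It was at 33.0, 30.3 and 29.6 CPM in control and 25.6, 23.6 and 25 CPM in knockdown samples, without overlap, and fell by 0.32 (SE 0.073, adjusted p = 0.00125). KCNK2 (TREK-1) had no count in any sample, and a limit of 3 counts over the 6 libraries allows up to 0.0159 CPM, for counting error only. KCNK6, below the minimum at 0.310 CPM and named after its values were seen, was the 1 called gene among the 9 tested below the minimum (-1.96, SE 0.60, adjusted p = 0.0132, 1 to 19 counts per sample).

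Calcium-activated potassium channels link calcium entry to repolarization. KCNN3 (SK3), known from immature and denervated muscle, was the most abundant per length, at 9.71 ± 0.338 RPKM in control and 8.68 ± 0.427 RPKM in knockdown cells (SD, n = 3). It was at 131, 126 and 122 CPM in control and 115, 107 and 118 CPM in knockdown samples, with an adjusted p of 0.017 and a log2 fold change of -0.16 (SE 0.051), under the fold threshold. KCNMA1, the BK pore, did not pass (-0.0063, SE 0.10, adjusted p = 0.973), with 14.3, 11.7 and 12 CPM in control and 13.1, 11.5 and 13.3 CPM in knockdown samples. The direction of KCNMA1 turned with the scaling.

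KCNMB4 (ENSG00000135643.5), the beta4 subunit that slows BK channels, rose from 18.6, 19.3 and 17.1 CPM to 25.4, 22.6 and 26.8 CPM (0.44, SE 0.084, adjusted p = 0.000169). Every knockdown sample was above every control sample. The ratio of KCNMB4 to KCNMA1 in RPKM was 1.72, 2.19 and 1.89 in control and 2.58, 2.62 and 2.68 in knockdown samples, so the auxiliary subunit gained on its pore. KCNAB3 had the highest mean RPKM of the potassium auxiliary genes over the 6 samples together (4.78), with 5.20 in control and 4.36 in knockdown cells, where KCNMB4 was higher (3.89 and 5.29). KCNAB3 was at 15.1, 15.7 and 14.1 CPM in control and 13, 13.8 and 10.9 CPM in knockdown samples and narrowly missed the threshold (-0.26, SE 0.10, adjusted p = 0.0507). It passed without knockdown sample 2 (-0.33, adjusted p = 0.0176). The 6 KCNE genes, small subunits that modify KCNQ and other channels, were all below the minimum.

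**Figure D4:**
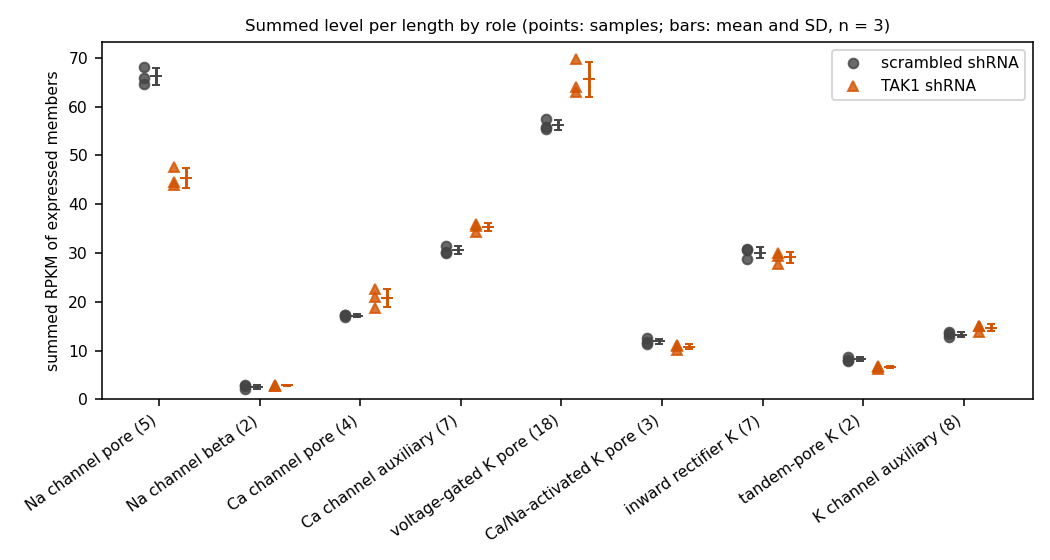
Summed RPKM of the expressed members of each role (vertical axis, from 0) in each sample, control (circles) and TAK1 knockdown (triangles), with the mean and SD beside them (n = 3) and the number of expressed genes in brackets. Sodium channel pores fell from 66.2 ± 1.78 to 45.4 ± 2.03 RPKM, while voltage-gated potassium pores went from 56.3 ± 1.02 to 65.6 ± 3.68 RPKM and calcium auxiliary genes from 30.6 ± 0.842 to 35.3 ± 0.847 RPKM. The sums carry no test.

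In control cells sodium channel pores held more summed RPKM than voltage-gated potassium pores in each sample, and in knockdown cells they held less in each sample (the plot of sums by role). The potassium sum includes the silent subunits, which form no channel alone. One of them, KCNF1, made up 24.9% of it, at 10.8 RPKM in control and 19.5 RPKM in knockdown cells. The order of the sums without the silent subunits was not tested. Of the other roles, the inward rectifiers (30.7, 28.7 and 30.8 in control and 30.1, 29.4 and 27.8 RPKM in knockdown samples) and the sodium channel beta genes overlapped between groups. Tandem-pore genes were lower in knockdown samples, with a ratio of 0.801, and calcium-activated pores had a ratio of 0.909 and potassium auxiliary genes one of 1.10.

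Of the 20 genes named for skeletal muscle, 7 were below the CPM minimum (SCN4A, CACNG1, KCNA7, KCNN4, KCNJ18, KCNJ2 and KCNK2). Among the expressed ones reported by name, CACNA1S, CACNA1H, KCNJ12, KCNH1 and KCNC4 were higher, KCNQ5 was lower, and CACNA2D1, CACNB1, KCNJ11, KCNN3 and KCNMA1 were not called, beside 11.8% higher and 11.3% lower over all genes tested.

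Exons of 27 of the 56 expressed members overlap another annotated gene, 6 of them on the same strand, and strand use in counting is not given in the sources used here. For KCNH3 the partner on the opposite strand, MCRS1, was at 66.6 CPM with a log2 fold change of 0.02 (adjusted p = 0.841), and for CACNA1H it was TPSG1, at 1.10 CPM (0.34, adjusted p = 0.502).

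Genes of proteins that bind these channels but lie outside the symbol rule were also counted. Of 26 such partners, 16 were tested and 4 were called, all higher (11.8% of all genes tested were called higher and 11.3% lower), with a median log2 fold change of 0.09 beside 0.018 over all genes. They were STAC3, which couples CACNA1S to contraction (143, 136 and 141 CPM to 166, 172 and 167 CPM, log2 fold change 0.27, adjusted p = 6.54e-05), CAV3, the muscle caveolin (0.71, adjusted p = 0.0431), ANK2, an ankyrin that anchors channels (0.38, adjusted p = 8.57e-06), and AKAP9, a scaffold for kinases at channels (0.39, adjusted p = 6.9e-06).

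Of 18 other channels of the voltage-gated superfamily, 10 were tested, 2 rose and 1 fell, with a median of 0.27. The shares over all genes tested were 11.8% and 11.3%, so this count is near the background. TPCN1, a lysosomal cation channel, rose from 105, 104 and 105 CPM to 145, 138 and 131 CPM (0.40, adjusted p = 7.09e-07), and UNC80, a subunit of the sodium leak channel, by 0.51 (adjusted p = 2.59e-06). HCN2, a pacemaker channel, went from 5.31, 4.89 and 4.80 CPM to 3.32, 2.80 and 3.33 CPM (-0.67, adjusted p = 0.0018). NALCN, the pore that UNC80 joins, did not pass (-0.28, mean 1.37 CPM).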

How the data were processed

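Poly(A)-enriched RNA from RD cells was sequenced as paired-end reads. The authors deposited raw counts of reads per gene for the 6 samples, made after CASAVA base calling, read filtering and STAR alignment to GRCh38. The counter, annotation release, strand use and treatment of reads with several matches are not given in the sources used here. Samples were grouped by their titles.

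Counts of 58735 rows were filtered with filterByExpr and normalized by TMM in edgeR 4.0.16 (R 4.3.3). The quasi-likelihood test compared TAK1 knockdown with scrambled shRNA over 15935 genes, with Benjamini-Hochberg adjustment. A gene was called when its adjusted p was under 0.05 and its log2 fold change was 0.25 or more in size. The tested genes held at least 99.9% of the counts of every sample. The common biological coefficient of variation was 5.67%. RPKM used the Ensembl canonical transcript of GENCODE 44, with merged exons as an alternative chosen after seeing the data. Other alternatives were 3 scalings, DESeq2 1.42.0, limma-voom 3.58.1, 2 filters, 2 fold thresholds, a replicate block and leaving out each sample. The code was tested on simulated data.

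Genes named are all called members, the member with the highest RPKM of each role, and a list of 20 known from skeletal muscle. The members, gene lists, motifs and promoters were chosen with earlier results of these data known, so lists carry no test. Some members are counted but not reported here by name. The labels do not say whether samples of the same number were paired. Correlations of same-numbered deviations were 0.037, 0.036 and 0.016, against -0.0524 to 0.019 for samples of different numbers. These small values cannot decide the question, so the main test used no pairing and the replicate block was an alternative.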

Additional observations from a re-analysis of the deposited data

How the results depend on the processing

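The 13 genes higher and 11 lower stayed within 1.5 times under every alternative except the fold threshold of 0.5, which left 7 and 5 because fewer genes reach it. The 24 called genes did not change direction in any alternative, and 17 of them kept their call in each at the fold threshold of 0.25. Leaving out 1 sample gave 9 to 12 genes higher and 8 to 11 lower, and a median log2 fold change of -0.016 to 0.084. The lowest of these medians, without scrambled sample 3, differed in sign from the 0.054 with all samples. KCNMA1 turned from -0.0063 to 0.011 with upper-quartile scaling, 0.042 with library size alone, 0.088 without scrambled sample 1 and 0.057 without TAK1 shRNA sample 2 (-0.061 to 0.088 when 1 sample was left out). SCN4A turned from 0.19 to -0.14 with limma-voom and to -0.014 and -0.24 without TAK1 shRNA samples 2 and 3 (-0.24 to 0.64). KCNJ11 turned from 0.12 to -0.0077 without TAK1 shRNA sample 1 (-0.0077 to 0.18). The cause was not tested, and none of these values passed the test. Library size alone moved the median of all genes to 0.066 and the share of calls that were upward from 51.0% to 62.9% over all genes, against 54.2% and 56.0% in the channel genes. With the replicate block, 13 genes were higher and 12 lower. The block added KCNAB3 (-0.26, adjusted p = 0.0217), as did DESeq2's size factors in edgeR (-0.26, adjusted p = 0.043). KCNH2 was added by library size alone (0.27), without scrambled sample 1 (0.25) and without TAK1 shRNA sample 3 (0.26), and KCNIP4 without scrambled sample 3 (0.89). With merged exon length the ratio of summed RPKM of the sodium channel beta genes went from 1.09 to 1.19, and KCNMB4 replaced KCNAB3 as the potassium auxiliary gene with the highest mean RPKM over all samples. A minimum of 0.25 CPM gave 66 expressed members and one of 1 CPM gave 46, against 56. Under 1 CPM, 0 of 10 expressed members passed in edgeR, DESeq2 or limma-voom, and what part depth has in this was not tested.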

Other observations

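The sodium-potassium pump, which builds the ion gradients these channels use, was counted from a list of its subunits. Of 14 pump genes, 8 were tested and 2 were called, both lower, a count near the background (11.3% of all genes tested were called lower and 11.8% higher), with a median log2 fold change of -0.22 beside 0.018 over all genes. ATP1B1, the beta subunit that carries the pump to the surface, was at 152, 152 and 150.0 CPM in control and 83.7, 80.3 and 81.6 CPM in knockdown samples, a fall of 0.89 on the log2 scale (SE 0.048, adjusted p = 4.35e-13). FXYD5, a regulatory subunit, fell by 0.35 (SE 0.069, adjusted p = 0.000287). Summed over the list, 745 to 781 CPM in control compared with 584 to 635 CPM in knockdown samples.

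REST, the repressor known to silence neuronal channel genes outside neurons, was at 75.8, 74.6 and 76.0 CPM in control and 76.8, 75.9 and 80.9 CPM in knockdown samples and did not pass (0.044, SE 0.052, adjusted p = 0.566). Of the 14 genes of its complex, all tested, 2 rose and 1 fell, near the 11.8% and 11.3% over all genes tested, with a median of 0.087. RCOR2 (0.35, adjusted p = 0.000147) was higher, and RCOR1 (-0.27, adjusted p = 0.000172) was lower, each without overlap between the groups.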
